A study of Mus musculus with 11 samples.

Results

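The transcripts described here are those whose RNA was most abundant in embryoid bodies that lack connexin43 and connexin45, above both the undifferentiated control cells and the control embryoid bodies. They were chosen on quantile-normalized log2 intensities from 11 bead arrays. A probe is 1 array feature that reads 1 stretch of transcript. It was a member when its mean in deleted embryoid bodies was at least 1 log2 unit, or 2-fold, above the mean of control stem cells and also above that of control embryoid bodies, and when all 4 deleted embryoid body arrays gave it a detection p-value under 0.05. Of 45281 probes, 124 were members. The detection criterion removed none, since all 124 probes with both differences were detected on the 4 arrays.

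Gap junctions are clusters of channels, built from connexin proteins, through which neighbouring cells exchange ions and small molecules. Connexin43 and connexin45 are among the connexins of early mouse embryonic cells. Embryoid bodies are aggregates of embryonic stem cells that differentiate in suspension. Their outer layer becomes primitive endoderm, an epithelium that lays down a basement membrane and patterns the cells beneath it, and the series title names this tissue.

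All groups came from a male C57BL/6 mouse line. The Cx43/45 flox cells, the controls, carry both connexin genes with recombination sites around them. The Cx43/45 del cells lack exon 3 of Cx43 and of Cx45, and in them lacZ is driven by the Cx43 promoter and eGFP by the Cx45 promoter, so the lines differ in reporters as well as in the connexins. Each genotype is 1 described line. There were 2 arrays of flox ESC (control stem cells), 2 of del ESC (deleted stem cells), 3 of flox EB and 4 of del EB, the embryoid bodies at day 6. Stem cells were grown with leukemia inhibitory factor on a feeder layer of mouse embryonic fibroblasts, and embryoid bodies in medium without that factor, each array holding a pool of bodies. The submitters call the arrays of a group biological replicates, but the labels name no separate cultures, so a p-value here reflects only how these arrays scatter, which may be technical.

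The files do not pair probe identifiers with genes, and neither do the reference tables used here. The members are therefore given by identifier. Gene names, probe sequences, the deleted genes themselves and the markers of endoderm, stem cells or feeder fibroblasts were not analysed here, so the labelled cell types have no marker check. Several probes can read 1 gene, so 124 probes may stand for fewer genes. The deposited arrays had 39.7% to 43.0% of probes detected and a mean intensity of 381 to 503 units. After normalization, probes with a detection p of at least 0.5, taken as background, lay at a median of 109.9 to 110.3 units on every array, which compresses the fold changes of dim members. The number of arrays limits the precision. In these bulk samples fewer cells of a type and less RNA per cell cannot be told apart.

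Most members were mid-level transcripts detected in every group and, by the rule, highest in deleted embryoid bodies. Their median level was 268 units in flox ESC, 301 in del ESC, 271 in flox EB and 839 in del EB (normalized intensity, from log2 group means). In del EB they ran from 259.7 to 7962 units, and 26 of the 124 were under 500 units there. A total of 99 members were detected on all 11 arrays, which was 79.8% of them against 56.9% of the 23268 probes tested. The rule asked for detection on every del EB array, which the tested probes did not need. The choice thus favoured the higher share, and nothing is read from its excess. Another 23 members were detected on some of the 7 other arrays. The remaining 2 were detected on the del EB arrays alone. In 10 members the means of the other 3 groups all lay under 150 units, close to background.

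The values that chose the members are given as a description without a test. The median difference was 1.37 on the log2 scale between del EB and flox EB, with a range of 1.00 to 2.86, and 1.35 between del EB and flox ESC, with a range of 1.00 to 3.51. Over all probes tested these medians were 0.01 and -0.00078. Of the tested probes, 2.37% lay at least 1 above flox EB and 4.54% at least 1 above flox ESC, as all members do by the rule. The 4 del EB arrays were above all 5 flox arrays in 120 members, against 6.80% of all tested, which the rule also favours. The threshold cut through a dense region. For the member nearest to it the smaller of the 2 differences was 1.0005, and for the nearest probe outside it was 0.995. In 38 members the smaller difference was under 1.1, while 66 detected probes lay outside at 0.9 to 1. A smaller difference of at least 1.5 was found in 27 members, and one of at least 2 in 6. Those 6 had del EB means of 734 to 1159.8 units against 119 to 242 in flox ESC and 139.8 to 257 in flox EB. In del ESC, which the rule did not compare, their means were 122 to 513 units. In each of flox ESC, del ESC and flox EB, 4 of the 6 were detected on every array of the group, though not the same 4 throughout. The same rule turned to flox EB, with detection on its 3 arrays, held for 412 probes. Turned to probes lowest in del EB, with detection on all 5 flox arrays, it held for 75.

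**Figure D1:**
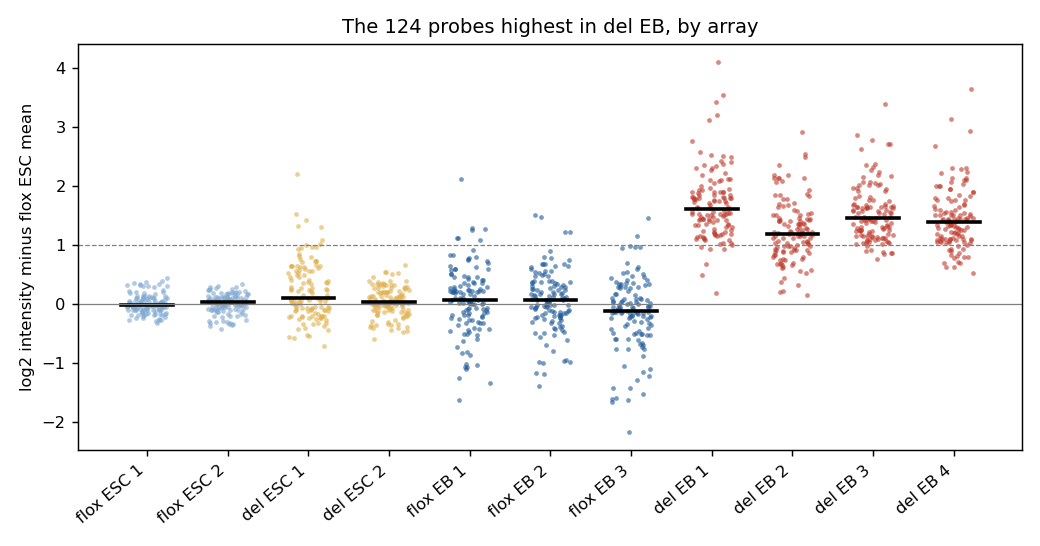
Log2 normalized intensity of each of the 124 member probes minus its flox ESC mean (y axis), on each of the 11 arrays (x axis), with a black line at the median of the members and a dashed line at a difference of 1. The del EB medians lie at 1.19 to 1.61 and those of the other arrays at -0.12 to 0.10. The flox and del EB arrays were used to choose the probes, and the del ESC arrays entered only the normalization.

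Among the members, the 2 with the largest difference between del EB and flox EB also fell in the control line. A ranking on that difference favours low flox EB values, so this fall is a description. ILMN_2643495 read 836, 1193, 905 and 1004 units on the 4 del EB arrays and 153, 138 and 115 on the 3 flox EB arrays. It read 341 and 393 in flox ESC and 572 and 463 in del ESC, so the del EB arrays were the highest and the flox EB arrays the lowest of all 11. Its fitted del EB to flox EB difference was 2.86 on the log2 scale, or 7.26-fold, a size compressed by background, since 1 of the 3 flox EB arrays did not detect it. After limma's neqc background correction it was 4.61. ILMN_1217442 read 2831, 1540.0, 2006 and 1701 units in del EB. Its flox EB arrays read 444, 455 and 202, its flox ESC arrays 919 and 896, and its del ESC arrays 752 and 892. The lowest del EB array was thus above every other array, and the difference from flox EB was 2.51 on the log2 scale (5.70-fold).

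The 2 members detected on del EB arrays alone, singled out after their values were seen, were dim. ILMN_1212645 read 359.6, 198, 347 and 216 units in del EB and 108 to 129 on the other 7 arrays. ILMN_2754364 read 408, 212, 301 and 185 units in del EB and 114 to 126 elsewhere. In both, the lowest del EB array was above every other array. Their fitted differences from flox EB, 2.35-fold and 2.14-fold, start from background and are no measure of how far the transcripts differ.

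**Figure D2:**
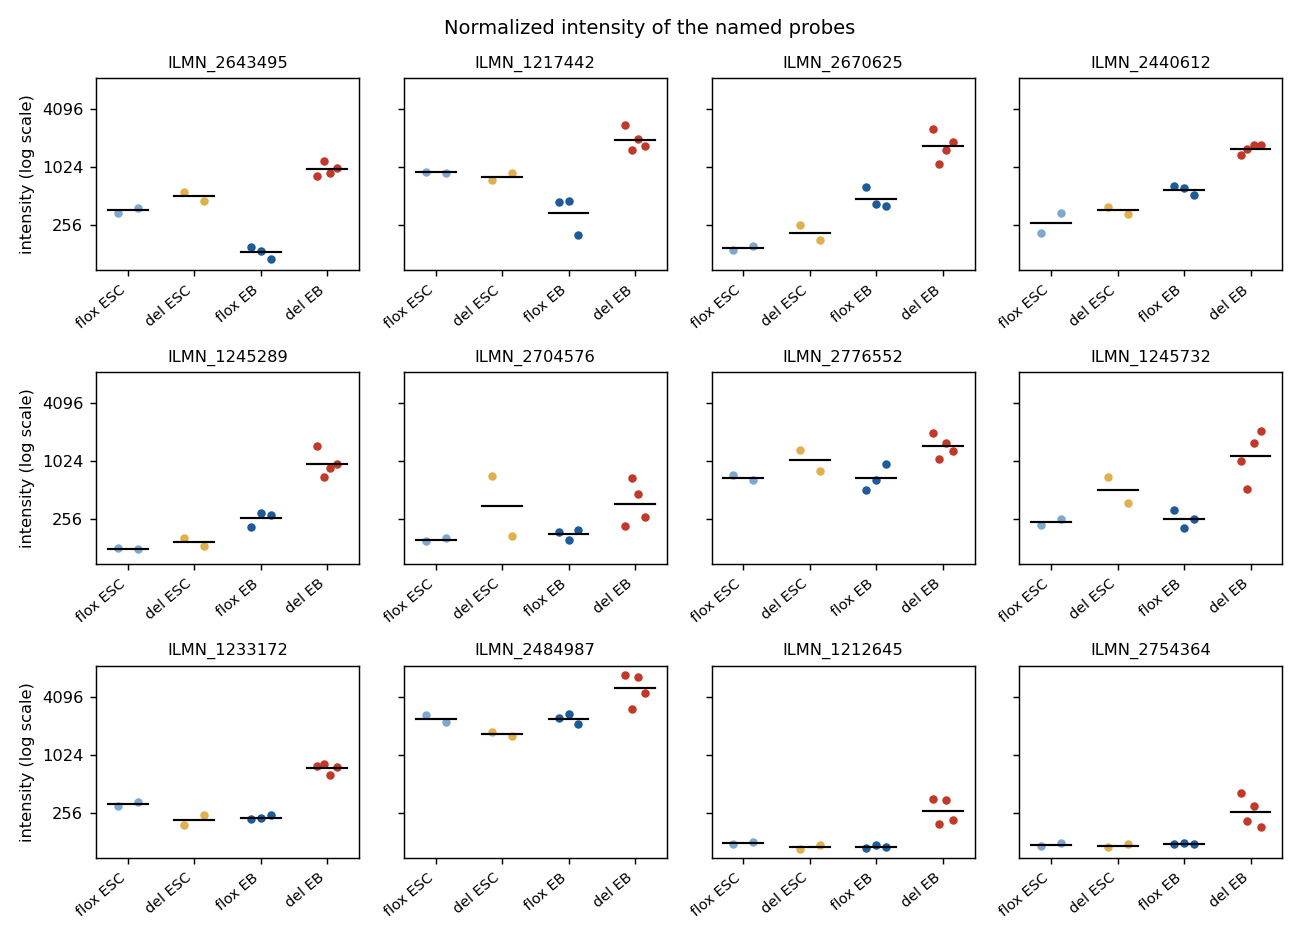
Normalized intensity in array units on a log axis (y axis) for the 12 probes named by the rule for comparisons, by detection or by control-line rise, in each group (x axis). Points are single arrays and the line is the group mean of log2 values. ILMN_2643495 and ILMN_1217442 are lowest in flox EB, ILMN_2670625, ILMN_2440612 and ILMN_1245289 step up from stem cells through flox EB to del EB, and the single high del ESC point of ILMN_2704576 is replicate 1.

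Beyond the shared normalization, the del ESC arrays took no part in the choice and show where the members stood in the deleted line before differentiation. They stood near the control stem cells. The median del ESC minus flox ESC difference was 0.07 on the log2 scale over the members and -0.01 over all probes tested, with single members from -0.54 to 1.18. Read against the flox ESC mean, the members' median was 0.10 on del ESC replicate 1 and 0.03 on replicate 2. The del ESC mean was above the flox ESC mean in 72 of 124 members (58.1%, against 46.6% of all tested).

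No member passed in the comparison of del ESC with flox ESC by limma at an adjusted p under 0.05, and 0% of all 23268 probes did. At an unadjusted p under 0.05, 9 members were higher and 1, ILMN_1233172, was lower, or 7.26% and 0.806%, against 4.84% and 4.15% of all tested. Both del ESC arrays were above both flox ESC arrays in 40 members (32.3%, against 17.9% of all tested) and below both in 15 (12.1%, against 20.5%). The flox ESC arrays were part of the choice, which asked for low values there, so these shares are not independent of it. With 2 arrays per group, a missed threshold does not show that the lines are alike.

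The members with the largest differences between the stem cell groups were highest in that group on del ESC replicate 1. ILMN_2704576 read 719 units on that array and 173 on replicate 2, against 150.2 and 162 in flox ESC. Its difference was 1.18 ± 0.63 on the log2 scale (SE, limma adjusted p = 0.60). ILMN_1245732 read 694 and 379.9 units in del ESC against 225 and 259.7 in flox ESC, without overlap, a difference of 1.09 ± 0.55 (SE, limma adjusted p = 0.58). At the low end, ILMN_1233172 read 192 and 244 units in del ESC against 301 and 331 in flox ESC, a difference of -0.54 ± 0.15 (SE, limma adjusted p = 0.51). ILMN_2484987 read 1793 and 1628 against 2689 and 2235 units, a difference of -0.52 ± 0.33 (SE, limma adjusted p = 0.65). None of the 4 passed. The difference of ILMN_2704576 was 2.21 without del ESC replicate 2 and 0.15 without replicate 1, and that of ILMN_1245732 was 1.52 and 0.65. After neqc ILMN_2704576 differed by 1.92 and ILMN_1233172 by -0.90. On del ESC replicate 1 alone 7 members lay at least 1 above the flox ESC mean, and on replicate 2 none did. Shares of all tested probes are not given for this, so nothing is read from these counts. Without replicate 2, 3 members passed and the lone deleted array is assumed to vary like the other groups. These were ILMN_3094013, ILMN_2809988 and ILMN_2759371, with log2 differences of 1.42, 0.81 and 0.76 (limma adjusted p = 0.017, 0.022 and 0.029), among 493 of 22971 probes that passed in that fit.

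Within the deleted line, 107 of the 124 members were higher in del EB than in del ESC by limma (86.3%), against 10.5% of all probes tested, and 0 were lower, against 11.8%. The del EB arrays entered the choice, which asked for high values there, so the choice itself favoured a count above the background. The median difference was 1.28 on the log2 scale, with a range of 0.07 to 2.97 and a median standard error of 0.23, against a median of 0.02 over all tested. It reached 1 in 94 members (75.8%, against 2.36%). The 4 del EB arrays were above both del ESC arrays in 116 members (93.5%, against 23.2%), and above all 7 other arrays in 114 (91.9%, against 5.69%). The count of 107 fell when either del ESC array was left out, the more so for replicate 2. It also fell without flox EB replicate 2 (105) and without del EB replicates 1, 3 and 4 (101, 98 and 101). It was 112 without flox EB replicate 1, 109 without flox EB replicate 3 and 108 without del EB replicate 2. Shares of all tested probes in those fits are not given, so a general loss of calls cannot be told apart.

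The largest rise in the deleted line was that of ILMN_2670625, which read 257 and 180.4 units in del ESC and 2537, 1121, 1549.7 and 1862 in del EB. Its difference was 2.97 ± 0.30 on the log2 scale (SE, limma adjusted p = 0.00017), or 7.86-fold. ILMN_1245289 rose from 163 and 135 units to 1469, 709.7, 873 and 964 units. Its difference was 2.71 ± 0.25 (SE, limma adjusted p = 1e-04), or 6.52-fold, compressed by a del ESC level near background. After neqc the differences of these 2 probes were 3.81 and 4.17. In both probes the lowest del EB array was above the higher del ESC array. The rule asked for high del EB values and these 2 were picked as the largest, so their p-values are a description.

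At the other end, ILMN_2704576 did not separate the stages of the deleted line. It read 219, 686, 465 and 267 units in del EB, all between the 173 and 719 units of the 2 del ESC arrays. The difference was 0.07 ± 0.55 (SE, limma adjusted p = 0.95). ILMN_2776552 read 2029, 1091, 1570.2 and 1309 units in del EB against 1347 and 816 in del ESC, with overlap, and differed by 0.48 ± 0.30 (SE, limma adjusted p = 0.30). The difference of ILMN_2704576 was -0.96 without del ESC replicate 2 and 1.095 without replicate 1, and that of ILMN_2776552 was 0.12 and 0.84. In all, 17 members did not pass.

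In the control line most members did not pass between stages. By limma 14 rose from flox ESC to flox EB (11.3%, against 18.3% of all tested) and 12 fell (9.68%, against 19.4%), leaving 98 without a call. The median difference was 0.02 on the log2 scale, as against -0.0065 over all tested, and flox EB was the higher of the 2 means in 66 members (53.2%, against 49.1%). Both groups entered the choice, each as a ceiling set by del EB. Shares of all tested probes in the fits that follow are not given, so a general loss of calls cannot be told apart. The count of rising members varied with single arrays and with scaling. It was 3 without flox ESC replicate 1, 6 without flox ESC replicate 2, 8 without flox EB replicate 1, 6 without flox EB replicate 2, and 9 under median scaling. The falling count was 6 without flox ESC replicate 1.

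The 14 rising members also all rose in the deleted line, where their log2 differences ran from 0.70 to 2.97. The rule places del EB at least 1 above flox EB, so a rise there was largely fixed by the choice and is a description. In 3 members (2.42%, against 6.41% of all tested) the control-line mean was at least 1 higher in flox EB. ILMN_2670625 rose from 141 and 157 units in flox ESC to 643, 422 and 410.2 in flox EB, by 1.69 ± 0.32 (SE, limma adjusted p = 0.0024; 2.94 after neqc), and its lowest del EB array, 1121 units, was above all of these. ILMN_2440612 rose from 215 and 342 to 656, 632 and 531 units, by 1.16 ± 0.19 (SE, limma adjusted p = 0.0012). In the deleted line it read 398 and 340.0 units and then 1375, 1579.7, 1761 and 1737, a difference of 2.13 ± 0.18 (SE, limma adjusted p = 7.4e-05). ILMN_1245289 rose from 128 and 126 units, where it was not detected, to 213, 295 and 282 units, all detected. Its fitted difference of 1.04 ± 0.26 (SE, limma adjusted p = 0.011) starts from background and is no exact measure of the rise.

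The 12 falling members went down by 0.46 to 1.45 on the log2 scale in the control line. In the deleted line the differences of these 12 ran from 0.55 to 1.80, with a median of 0.97. Of the 12, 9 passed there as higher by limma, against 10.5% of all tested. Their del ESC minus flox ESC median was 0.24. In 7 members (5.65%, against 5.73% of all tested) the control-line mean was at least 1 lower in flox EB. Every flox EB array was below every flox ESC array while every del EB array was above every del ESC array in 22 members (17.7%, against 2.20%), and both lines were higher without overlap in embryoid bodies in 25 (20.2%, against 11.9%). The choice asked for high del EB and low flox values, so it favoured these shares and nothing is read from their excess. The 2 probes that follow were picked for the largest falls, and the rule used their flox and del EB values. Their p-values do not allow for that choice. ILMN_2643495 changed by -1.45 ± 0.17 in the control line (SE, limma adjusted p = 0.00019) and by 0.92 ± 0.16 in the deleted line (SE, limma adjusted p = 0.0034). After neqc its control-line difference was -2.90. ILMN_1217442 changed by -1.40 ± 0.35 in the control line (SE, limma adjusted p = 0.010), without overlap between stages. Without flox ESC replicate 1 its adjusted p was 0.062, and over all alternatives it ran from 0.0037 to 0.062. In the deleted line it rose by 1.26 ± 0.33 (SE, limma adjusted p = 0.021).

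**Figure D3:**
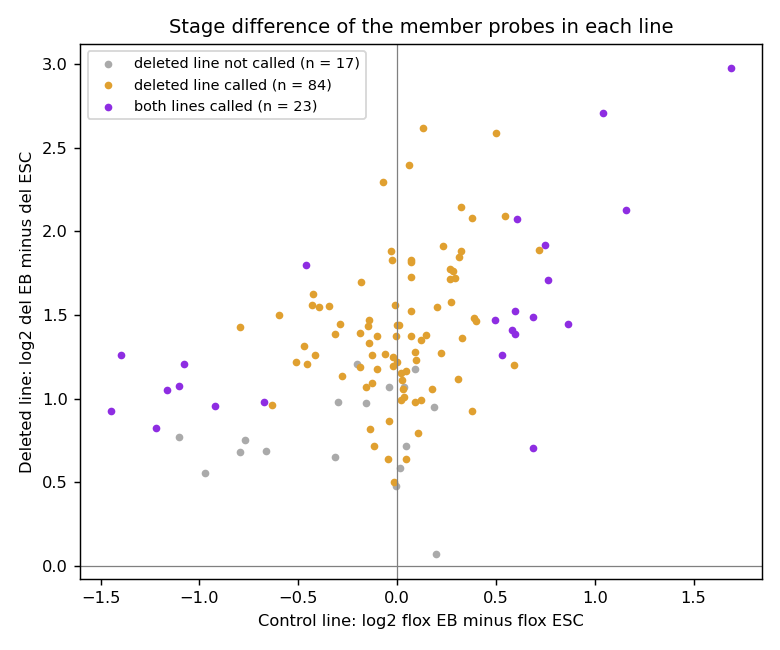
Log2 difference between embryoid bodies and stem cells for each member probe in the control line (x axis) and in the deleted line (y axis), coloured by limma calls at an adjusted p of 0.05. The y values run from 0.07 to 2.97 and the x values from -1.45 to 1.69. The 17 grey points did not pass in the deleted line. No arrays are shared between the axes, but 3 of the 4 groups were used to choose the probes.

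The 4 del EB arrays did not carry the members equally. Against the flox ESC mean, the members' median stood at 1.61 on the log2 scale on replicate 1, 1.19 on replicate 2, 1.45 on replicate 3 and 1.39 on replicate 4. Replicate 1 was the highest of the 4 in 66 members (53.2%, against 26.0% of all probes tested), and replicate 2 was the lowest in 73 (58.9%, against 28.2%). Under median scaling these counts were 77 and 89. Both held in 51 members, and the opposite order in 11. Replicate 1 lay at least 1 above both control means in 115 members, replicate 3 in 111, replicate 4 in 97 and replicate 2 in 64. All 124 were above their flox ESC mean on each of the 4 arrays. In 92 members the 4 arrays lay within 1 log2 unit of each other, and the widest range was 2.01. The share of all tested probes within that range is not given, so the count is a description. The members' median SD over the 4 arrays was 0.28, against 0.11 over all tested probes. It was also the larger in flox ESC (0.14 against 0.095), del ESC (0.18 against 0.12) and flox EB (0.22 against 0.13). These SDs were not compared at matched levels, and more of the tested probes than of the members went undetected on some array. The choice used the del EB values, so the ranks and the SD on these arrays are a description. Deposited mean intensity was highest on replicate 1 among the 4, at 489.9 units, and lowest on replicate 2, at 425. Its part in the order of the arrays was not tested.

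**Figure D4:**
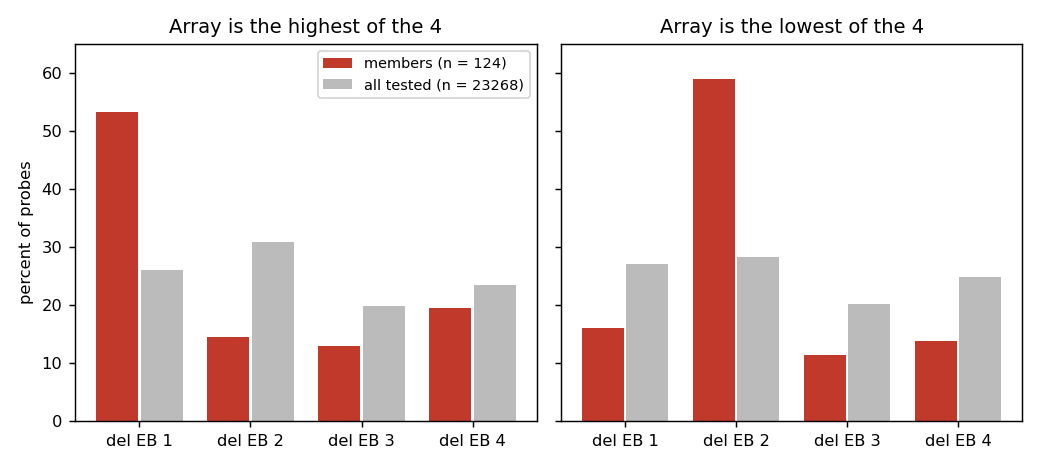
Percent of probes (y axis) for which each del EB array (x axis) is the highest, left, or the lowest, right, of the 4 arrays, for the 124 members in red and all 23268 probes tested in grey. Replicate 1 is the highest in 53.2% of members and replicate 2 the lowest in 58.9%, against 26.0% and 28.2% of all tested.

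The choice was repeated with 1 array left out, and the probes so chosen were read on that array. The array left out entered that choice only through the normalization over all arrays. The group means it was set against were used by the choice, which favours the shares that follow. Without del EB replicate 3, 121 probes were chosen and 99 of these (81.8%) lay at least 1 above both control means on replicate 3. For replicate 1 it was 87 of 112 (77.7%) and for replicate 4 it was 89 of 138 (64.5%). For replicate 2 it was 61 of 170 (35.9%), although 163 of the 170 were above both control means there. The flox EB arrays, each left out in turn, lay at least 1 below the del EB mean for 68.4% to 80.2% of the probes chosen without them, and the flox ESC arrays for 73.5% and 81.5%. Of the 124 members, 96 to 121 were chosen again. On the arrays left out, part of each set therefore fell short of the threshold, the largest part on del EB replicate 2.

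**Figure D5:**
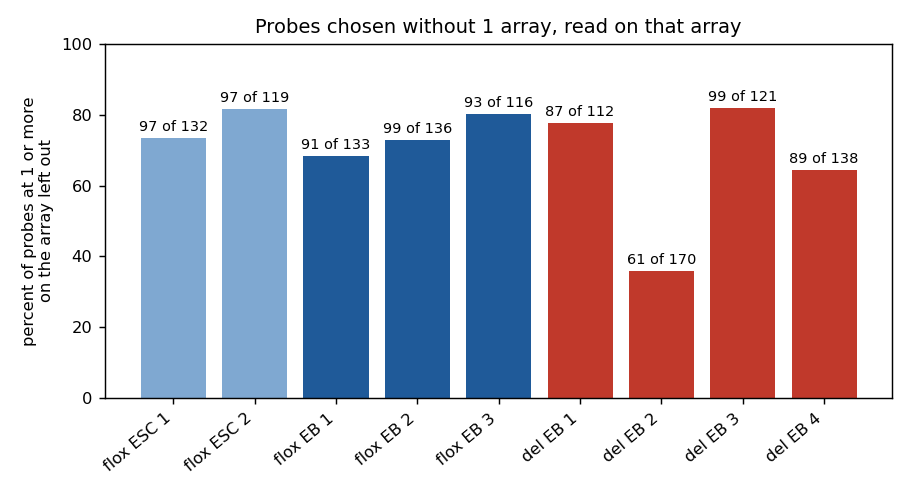
Percent of probes (y axis) that keep a difference of at least 1 on the array left out of the choice (x axis), with the counts above the bars. For flox arrays the difference is the del EB mean minus that array, and for del EB arrays it is that array minus each control mean. The bar of del EB replicate 2 stands at 35.9% and the others at 64.5% to 81.8%.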

How the data were processed

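RNA was measured on Illumina MouseWG-6 arrays, and the authors deposited, per the design text, probe intensity values from GenomeStudio 2011.1 (Gene Expression module 1.9.0), not normalized between arrays. Each intensity has a deposited detection p-value, named so per the file headers. The submitters' processing notes name limma. Background subtraction is not stated in the sources. Each of the 22 columns matched 1 sample title.

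Intensities were quantile normalized over 11 arrays and log2 transformed, with no offset since the lowest was 85.9. The 23268 probes with detection p under 0.05 on at least 2 arrays entered a 4-group fit with limma 3.58.1 (R 4.3.3), Benjamini-Hochberg adjusted over these probes within each comparison, with a threshold of 0.05. The fit was tested on simulated data. Members, lists and tests were chosen with earlier results of these data known. At most 2 members per direction and comparison are named by size of difference, and those named for detection, for a control rise of at least 1, or in the fit without del ESC replicate 2 were added after seeing values. Alternatives were median scaling, limma's neqc (offset 16), other filters and thresholds, group medians, fits of the compared groups alone, trended robust moderation, a replicate block and omission of each array in turn, with the 11-array normalization kept. A run on values with no normalization was added after seeing the data.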

Additional observations from a re-analysis of the deposited data

Results flagged for a closer look

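In 22 members every flox EB array lay below every flox ESC array while every del EB array lay above every del ESC array. The count uses the order of the arrays alone, without regard to detection. It includes members near background, where that order shows no direction. The 22 were 17.7% of the members, against 2.20% of all probes tested, a share that the choice favoured by asking for high del EB and low flox values. The difference between the lines was not tested, because the choice of members used the del EB to flox EB contrast.

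Among the named probes, 3 showed opposite directions. ILMN_2643495 stood at -1.45 in the control line and 0.92 in the deleted line, on the log2 scale. ILMN_1217442 stood at -1.4 and 1.26. ILMN_1233172 stood at -0.46 and 1.80. ILMN_1212645 met the same array pattern at -0.13 and 1.26, but it was detected on del EB arrays alone, so its control-line value lies within background and shows no direction. Of 13 sets of 4 del EB values examined on the log2 scale, none had an array far from the other 3 by Dixon's 95% limit.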

How the results depend on the processing

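The number of members depended on scale and threshold. It was 187 under median scaling, 440 after neqc background correction, 27 at differences of at least 1.5 and 6 at 2, and it ran from 112 to 170 with 1 array left out. The sets of 187 and 440 held all 124 members. The count higher in del EB than in del ESC ran from 76 to 112 with 1 array left out and from 88 to 112 under the other alternatives. Rising members in the control line numbered 9 under median scaling, 9 with no detection filter, 3 with no normalization, and 3 to 13 with 1 array left out. Falling members numbered 6 to 13 with 1 array left out. Calls between stem cell groups ran from 0 to 3 with 1 array left out and were 0 otherwise. The members' median del ESC minus flox ESC difference was 0.13 after neqc and 0.18 with no normalization, and ran from 0.03 to 0.11 with 1 array left out. Where rising and falling are set side by side, no normalization gave 3 and 8 in place of 14 and 12. Shares of all tested probes are not given for the counts in this section, so a general change in calls cannot be told apart. With the replicate number as a block, counts were 99 higher in del EB than in del ESC, 0 between stem cell groups, and 13 rising and 9 falling in the control line. Same-numbered arrays deviated together at r from -0.25 to 0.19 over 13 pairs, so the numbers were not taken as pairing. Named probes were rerun only in the comparisons for which they were named by size, 14 results in all. Of the calls among these 14, only that of ILMN_1217442 between control stages was lost. The uncalled del EB minus del ESC difference of ILMN_2704576 (0.07) changed sign under 4 alternatives and ran from -0.96 to 1.095 with 1 array left out. Its del ESC minus flox ESC difference ran from 0.15 to 2.21. After neqc, differences of named probes near background grew, the largest from 2.86 to 4.61 for ILMN_2643495.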
